A study of Homo sapiens with 9 samples.

Results

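The genes described here are 10 feedback inhibitors of mitogen-activated protein kinase (MAPK) signalling, 7 dual-specificity phosphatases (DUSP1, DUSP2, DUSP4, DUSP5, DUSP6, DUSP8 and DUSP10), 2 Sprouty genes (SPRY2 and SPRY4) and the Sprouty-related SPRED2. They were taken by symbol from a deposited table of 20323 genes, in which each occurs on 1 row. All cells were of the human proximal tubular line HKC-8, studied in 3 groups of 3 poly(A) RNA libraries. Wnt1_KP6 cells were transfected with the p-Wnt-1 plasmid, which carries the secreted ligand Wnt1, and given KP6, a peptide derived from the kidney protein Klotho. Wnt1 cells received the same plasmid without KP6, and control cells received the empty vector pcDNA3. All 9 libraries share this cell line and the batch label 1. No source used here gives the dose or duration of KP6 or the time after transfection. Nor do the labels state that each replicate was its own culture, and p-values cover only the spread of these libraries, which may be technical.

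Growth factors and stress activate 3 families of MAPK, called ERK, JNK and p38, through relays of kinases. DUSP proteins of the MAPK phosphatase class remove phosphate from the threonine and the tyrosine of the MAPK activation loop and so switch the kinase off. Sprouty and SPRED proteins act further upstream, between growth factor receptors, Ras and RAF. Many of these genes are themselves switched on by MAPK activity, which makes them negative feedback genes and their mRNA a common readout of recent signalling. Kinase phosphorylation was not measured in these samples.

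Library totals ran from 21199078 to 27507623 expected counts. CPM below are expected counts scaled to an equal library size after TMM, a correction for RNA composition, and log2 fold changes stand with their standard error (SE) from edgeR's quasi-likelihood test over all 9 libraries. "Called" means a Benjamini-Hochberg adjusted p under 0.05 over the genes tested in the fit named. The main fit tested 13153 genes with 3 libraries per group. Fits to replicates 2 and 3 alone had 2 libraries per group and 13041 genes. Fits without 1 library left 2 in its group and tested 13268 to 13362 genes. DESeq2 gave an adjusted p for 13099 genes, or 12592 in Wnt1_KP6 vs control. WNT1 had 0 to 2 counts in every library, so the counts give no check of the plasmid label. Kidney epithelial markers PAX8, KRT8, KRT18 and EPCAM were present, but 10 of 12 proximal tubule markers, LRP2, CUBN and HNF4A among them, stayed under 1 CPM in all libraries, as did CDH1 and PAX2. The other 2 proximal tubule markers were present in each library, GGT1 at 121 to 173 CPM and MME at 58.9 to 75.0 CPM. All 5 endothelial markers and 4 of 5 immune markers were under 1 CPM too, and PTPRC was at 0. The remaining immune marker, CD68, had 26.1 to 50.6 CPM. The 7 fibroblast markers summed to 17.6 to 22.9 CPM in Wnt1_KP6, 15.6 to 20.6 CPM in Wnt1 and 21.2 to 39.1 CPM in control, with the highest sum in control replicate 1. COL1A1, at 14.6 to 23.7 CPM, made up most of each sum. COL1A2 had 197 counts and COL3A1 98 in control replicate 1, against at most 16 and 13 in any other library. LUM had 42, 66 and 64 counts in replicate 1 of Wnt1_KP6, Wnt1 and control, and at most 3 elsewhere. The part of these fibroblast markers in the results was not tested. Replicate 1 differed from replicates 2 and 3 in every group: the chi-square per degree of freedom of the counts was 54.3 to 142 for pairs with replicate 1 and 3.09 to 13.4 for replicates 2 and 3. Results are therefore also given for replicate 1 alone and for replicates 2 and 3 alone.

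DUSP1 and DUSP5 stood far above the other genes in Wnt1_KP6 replicates 2 and 3, and not in Wnt1_KP6 replicate 1. On the length-scaled FPKM values of the authors, the highest means in Wnt1_KP6 were DUSP1 at 127 ± 93.2 and DUSP5 at 78.8 ± 44.0 FPKM (SD, n = 3), followed by DUSP6 (25.5 ± 3.89), SPRY2 (22.3 ± 8.82) and SPRED2 (21.1 ± 1.73). In Wnt1 the first 3 were level, with DUSP5 at 21.4 ± 12.2, SPRED2 at 20.7 ± 1.55 and DUSP1 at 20.2 ± 1.70 FPKM. In control SPRED2 led at 18.4 ± 4.57 FPKM, ahead of DUSP1 (12.2 ± 3.12), and DUSP6 (8.77 ± 6.49), DUSP5 (7.60 ± 5.28) and SPRY2 (7.26 ± 1.04) could not be told apart. DUSP10, DUSP8, SPRY4 and DUSP2 had mean FPKM values of 1.44 to 3.00 in control, and DUSP4 was the lowest gene in each group.

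**Figure D1:**
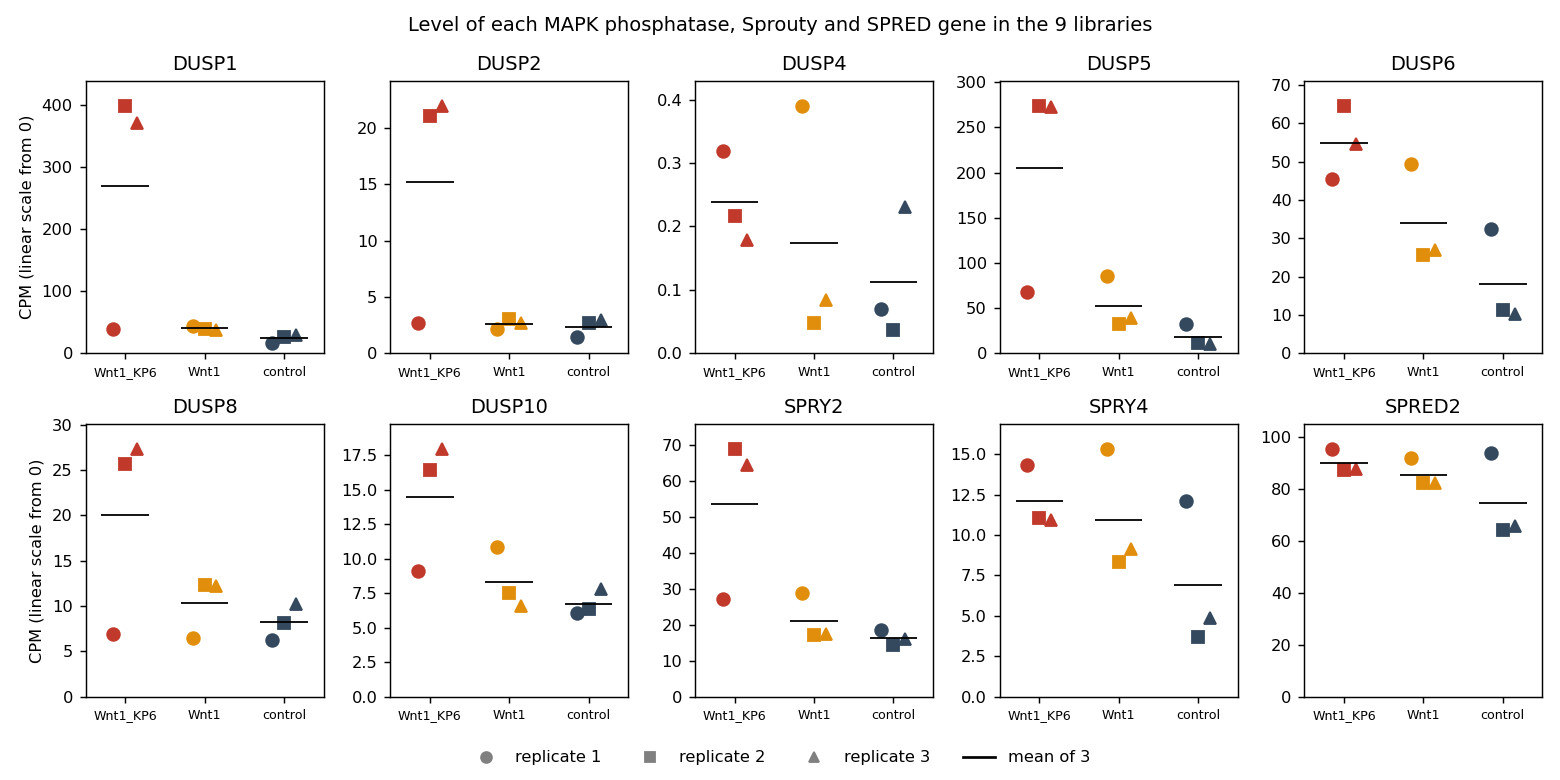
CPM of the 10 genes in each library on linear axes that start at 0, with Wnt1_KP6 left, Wnt1 in the middle and control right; symbols mark the replicate and the line is the mean of 3. Wnt1_KP6 replicates 2 and 3 stand alone at the top for DUSP1, DUSP2, DUSP5, DUSP8, DUSP10 and SPRY2, whereas Wnt1_KP6 replicate 1 lies near Wnt1 replicate 1.

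DUSP1, DUSP2 and DUSP8 had closely similar patterns over the 9 libraries. Pearson's r of log2 CPM was 0.98 for DUSP1 with DUSP2, 0.90 for DUSP1 with DUSP8 and 0.94 for DUSP2 with DUSP8. DUSP10 and SPRY2 were also close to DUSP1 (0.94 each), while SPRED2 barely varied. The promoters of DUSP1, DUSP2, DUSP8 and SPRED2 are shown as 4 examples. Each runs from 250 bases before to 50 bases after the gene start in RefSeq on GRCh38.p14, on the minus strand, at chr5:172771146-172771445 for DUSP1, chr2:96145391-96145690 for DUSP2, chr11:1572222-1572521 for DUSP8 and chr2:65432550-65432849 for SPRED2. Capitals mark the core of the cAMP response element (CRE), TGACGT on either strand, the site class read by CREB and ATF factors such as ATF3.
DUSP1: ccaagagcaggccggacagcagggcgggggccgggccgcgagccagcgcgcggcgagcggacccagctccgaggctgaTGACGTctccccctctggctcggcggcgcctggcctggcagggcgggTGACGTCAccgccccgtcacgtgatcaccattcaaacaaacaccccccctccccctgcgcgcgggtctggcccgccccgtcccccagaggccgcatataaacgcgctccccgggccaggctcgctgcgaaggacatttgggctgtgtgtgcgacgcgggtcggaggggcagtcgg
DUSP8: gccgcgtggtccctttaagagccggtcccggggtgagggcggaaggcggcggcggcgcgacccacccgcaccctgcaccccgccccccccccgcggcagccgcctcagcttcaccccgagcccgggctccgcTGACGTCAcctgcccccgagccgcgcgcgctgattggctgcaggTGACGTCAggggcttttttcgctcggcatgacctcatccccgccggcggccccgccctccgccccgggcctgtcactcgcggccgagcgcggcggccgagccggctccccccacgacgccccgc
DUSP2: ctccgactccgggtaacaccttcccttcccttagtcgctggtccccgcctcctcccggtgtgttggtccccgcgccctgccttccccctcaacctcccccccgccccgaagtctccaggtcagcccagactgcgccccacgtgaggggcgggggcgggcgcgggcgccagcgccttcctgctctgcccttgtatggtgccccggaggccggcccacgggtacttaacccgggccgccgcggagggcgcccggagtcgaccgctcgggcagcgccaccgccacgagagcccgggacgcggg
SPRED2: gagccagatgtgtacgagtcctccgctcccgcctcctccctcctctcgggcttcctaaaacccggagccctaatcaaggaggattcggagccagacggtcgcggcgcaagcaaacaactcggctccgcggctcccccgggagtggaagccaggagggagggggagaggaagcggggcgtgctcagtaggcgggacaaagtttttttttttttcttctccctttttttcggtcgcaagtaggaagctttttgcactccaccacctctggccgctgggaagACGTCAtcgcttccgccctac
DUSP1 holds a single core 172 to 167 bases before the start and an 8-base run of 2 overlapping cores 125 to 118 bases before it. Such a run, TGACGTCA, is 1 site that matches the core once on each strand. DUSP8 holds 2 such 8-base runs, 118 to 111 and 74 to 67 bases before the start. DUSP2 has no match in this window, and SPRED2 has a single core 29 to 34 bases after the start. DUSP10 and SPRY2, closer to DUSP1 in pattern than DUSP8 was, have no match in this window either. Whether the matches bear on the patterns was not tested. Promoters were found in the RefSeq table for 8 of the 10 genes, all but DUSP4 and DUSP5. The CRE core was present in 3 of these 8 and in 7.98% of 35116 promoter windows of the same length. The AP-1 site TGACTCA (4.95% of all windows), the ETS site CCGGAAG (10.26%), the TCF/LEF core TCAAAG (12.92%) and the CArG box of SRF (1.29%), searched on both strands, were in 0 of the 8. The RefSeq start lay 351 bases from the GENCODE 29 start for DUSP8, 770 for DUSP6 and 2208 for SPRY4, and 0 to 175 bases away for the others. A match describes these letters only and is not a measured site.

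**Figure D2:**
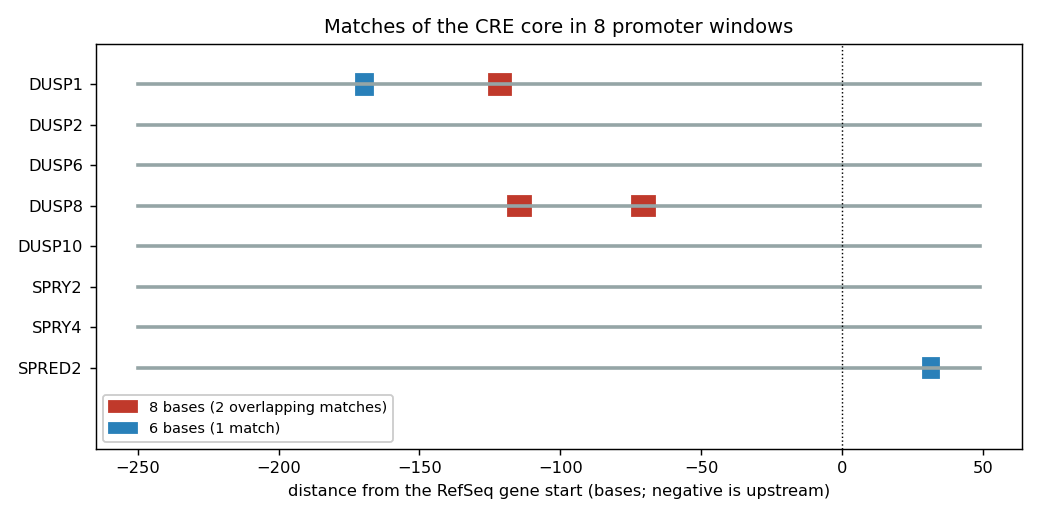
Position of CRE core matches in 8 promoter windows, as distance in bases from the RefSeq gene start, with negative values upstream. Red boxes are 8-base runs of 2 overlapping matches (DUSP1 and DUSP8), blue boxes single 6-base matches (DUSP1 and SPRED2), and the other windows hold none.

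The nuclear inducible phosphatases are immediate early genes that act on ERK, JNK and p38 (DUSP1), mainly on ERK and p38 (DUSP2) or on ERK alone (DUSP5). DUSP1 (ENSG00000120129, GRCh38 chromosome 5, 172768090 to 172771195) had 38.6, 399 and 371 CPM in Wnt1_KP6 replicates 1, 2 and 3. It had 43.5, 39.9 and 37.9 CPM in Wnt1, and 16.7, 26.5 and 29.2 CPM in control. Wnt1_KP6 replicate 1 fell among the Wnt1 libraries, and every Wnt1 and Wnt1_KP6 library lay above every control library. The log2 fold change was 2.74 ± 0.70 for Wnt1_KP6 vs Wnt1 (adjusted p = 1), 3.48 ± 0.73 for Wnt1_KP6 vs control (adjusted p = 0.0842) and 0.75 ± 0.67 for Wnt1 vs control (adjusted p = 0.749). In replicate 1 alone the same differences were -0.17, 1.20 and 1.37, against 3.30 ± 0.08, 3.79 ± 0.08 and 0.48 ± 0.08 in replicates 2 and 3.

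DUSP2 (ENSG00000158050, chromosome 2, 96143166 to 96145440) was a low transcript that followed DUSP1. Its level was 2.67, 21.1 and 22.0 CPM in Wnt1_KP6, 2.16, 3.04 and 2.71 CPM in Wnt1, and 1.48, 2.68 and 2.96 CPM in control. The 2 high libraries were again Wnt1_KP6 replicates 2 and 3, and the other 7 libraries overlapped between groups. The log2 fold change was 2.53 ± 0.68 for Wnt1_KP6 vs Wnt1 (adjusted p = 1), 2.68 ± 0.68 for Wnt1_KP6 vs control (adjusted p = 0.128) and 0.15 ± 0.68 for Wnt1 vs control (adjusted p = 0.968). DUSP2 rose by 2.90 ± 0.14 within replicates 2 and 3 in Wnt1_KP6 vs Wnt1 (adjusted p = 3.36e-09), and was at 0.03 ± 0.17 in Wnt1 vs control (adjusted p = 0.928).

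DUSP5 (ENSG00000138166, chromosome 10, 110497838 to 110511544) had its lowest levels in control replicates 2 and 3 and its highest in Wnt1_KP6 replicates 2 and 3. It had 67.9, 274 and 273 CPM in Wnt1_KP6, 85.8, 33.0 and 38.7 CPM in Wnt1, and 32.3, 11.7 and 10.5 CPM in control. The 3 Wnt1 libraries lay above the 3 control libraries, by as little as 33.0 against 32.3 CPM, since replicate 1 of both groups was higher than its replicates 2 and 3. The log2 fold change was 1.96 ± 0.65 for Wnt1_KP6 vs Wnt1 (adjusted p = 1), 3.49 ± 0.69 for Wnt1_KP6 vs control (adjusted p = 0.0766) and 1.53 ± 0.65 for Wnt1 vs control (adjusted p = 0.426). The Wnt1 vs control difference was 1.41 in replicate 1 and 1.69 ± 0.10 in replicates 2 and 3 (adjusted p = 2.2e-08), so its size was alike in both. The Wnt1_KP6 vs Wnt1 difference was -0.34 in replicate 1 and 2.93 ± 0.09 in replicates 2 and 3 (adjusted p = 1.61e-11). DUSP4 (chromosome 8), another nuclear inducible phosphatase, had 8, 5 and 4 counts in Wnt1_KP6, 11, 1 and 2 in Wnt1 and 2, 1 and 6 in control, under 0.4 CPM in each library, and did not pass the filter on low counts.

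DUSP6 (ENSG00000139318, chromosome 12, 89347232 to 89353271), the cytoplasmic phosphatase specific for ERK and a standard readout of ERK output, was more even across groups. It had 45.4, 64.5 and 54.6 CPM in Wnt1_KP6, 49.4, 25.7 and 27.1 CPM in Wnt1, and 32.5, 11.3 and 10.4 CPM in control. All Wnt1_KP6 libraries lay above all control libraries, while Wnt1 overlapped both. The log2 fold change was 0.68 ± 0.45 for Wnt1_KP6 vs Wnt1 (adjusted p = 1), 1.60 ± 0.46 for Wnt1_KP6 vs control (adjusted p = 0.157) and 0.92 ± 0.45 for Wnt1 vs control (adjusted p = 0.494). The steps within replicates 2 and 3 were 1.17 ± 0.10 for Wnt1_KP6 vs Wnt1 (adjusted p = 1.37e-06) and 1.29 ± 0.11 for Wnt1 vs control (adjusted p = 1.14e-06). The DUSP6 level carries an added doubt, as 40.5% of its exon sequence is opposite another gene and the library kit is not stated to keep strand.

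DUSP8 and DUSP10 act mainly on JNK and p38. DUSP8 (ENSG00000184545, chromosome 11, 1554044 to 1571920) had 6.97, 25.7 and 27.3 CPM in Wnt1_KP6, 6.42, 12.3 and 12.2 CPM in Wnt1, and 6.26, 8.10 and 10.3 CPM in control. Replicate 1 was the lowest library of each group and differed little between groups. The log2 fold change was 0.96 ± 0.48 for Wnt1_KP6 vs Wnt1 (adjusted p = 1), 1.28 ± 0.48 for Wnt1_KP6 vs control (adjusted p = 0.248) and 0.33 ± 0.48 for Wnt1 vs control (adjusted p = 0.873). DUSP8 stood at 0.12 in replicate 1 of Wnt1_KP6 vs Wnt1 and rose by 1.11 ± 0.12 over replicates 2 and 3 (adjusted p = 1.8e-05). DUSP10 (ENSG00000143507, chromosome 1, 221701424 to 221742176) had 9.12, 16.4 and 18.0 CPM in Wnt1_KP6, 10.9, 7.50 and 6.59 CPM in Wnt1, and 6.05, 6.34 and 7.78 CPM in control. All its Wnt1_KP6 libraries exceeded all control libraries, by 1.11 ± 0.28 on the log2 scale (adjusted p = 0.123). For DUSP10 the log2 fold change was 0.80 ± 0.28 for Wnt1_KP6 vs Wnt1 (adjusted p = 1) and 0.31 ± 0.28 for Wnt1 vs control (adjusted p = 0.745). Replicate 1 gave -0.25 for Wnt1_KP6 vs Wnt1 and 0.84 for Wnt1 vs control, whereas replicates 2 and 3 gave 1.29 ± 0.14 (adjusted p = 1.74e-05) and -0.00 ± 0.15 (adjusted p = 0.989).

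Of the Sprouty genes, whose products bind adaptor and RAF proteins below growth factor receptors, SPRY2 was high in Wnt1_KP6 replicates 2 and 3 and SPRY4 was not. SPRY2 (ENSG00000136158, chromosome 13, 80335976 to 80340951) had 27.2, 68.8 and 64.4 CPM in Wnt1_KP6, 28.7, 17.1 and 17.3 CPM in Wnt1, and 18.4, 14.2 and 16.1 CPM in control. Its log2 fold change was 1.34 ± 0.35 for Wnt1_KP6 vs Wnt1 (adjusted p = 1), 1.72 ± 0.35 for Wnt1_KP6 vs control (adjusted p = 0.0788) and 0.37 ± 0.34 for Wnt1 vs control (adjusted p = 0.756). SPRY2 was at -0.07 for Wnt1_KP6 vs Wnt1 in replicate 1 and rose by 1.95 ± 0.09 over replicates 2 and 3 (adjusted p = 2.85e-09). All Wnt1_KP6 libraries were above all control libraries for SPRY2. SPRY4 (ENSG00000187678, chromosome 5, 142310427 to 142326455) had 14.3, 11.0 and 10.9 CPM in Wnt1_KP6, 15.3, 8.36 and 9.13 CPM in Wnt1, and 12.1, 3.66 and 4.85 CPM in control. Here replicate 1 was the highest library of each group, and the groups overlapped. Its log2 fold change was 0.14 ± 0.42 for Wnt1_KP6 vs Wnt1 (adjusted p = 1), 0.81 ± 0.43 for Wnt1_KP6 vs control (adjusted p = 0.406) and 0.67 ± 0.43 for Wnt1 vs control (adjusted p = 0.611). SPRY4 rose within replicates 2 and 3 in Wnt1 vs control (1.04 ± 0.16, adjusted p = 0.000223), and the further step to Wnt1_KP6 was 0.32 ± 0.14 (adjusted p = 0.234).

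SPRED2 (ENSG00000198369, chromosome 2, 65310851 to 65432637), which keeps Ras from activating RAF, varied least. It had 95.4, 87.4 and 87.5 CPM in Wnt1_KP6, 92.1, 82.1 and 82.1 CPM in Wnt1, and 93.8, 64.4 and 65.8 CPM in control. The 2 libraries that stood apart were control replicates 2 and 3, which were low. The log2 fold change was 0.08 ± 0.14 for Wnt1_KP6 vs Wnt1 (adjusted p = 1), 0.27 ± 0.14 for Wnt1_KP6 vs control (adjusted p = 0.407) and 0.19 ± 0.14 for Wnt1 vs control (adjusted p = 0.672). Within replicates 2 and 3 the difference was 0.09 ± 0.07 for Wnt1_KP6 vs Wnt1 (adjusted p = 0.561), and SPRED2 rose by 0.34 ± 0.07 in Wnt1 vs control (adjusted p = 0.00239). In bulk RNA more expressing cells and more RNA per cell cannot be told apart, for SPRED2 or for any of the other genes.

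**Figure D3:**
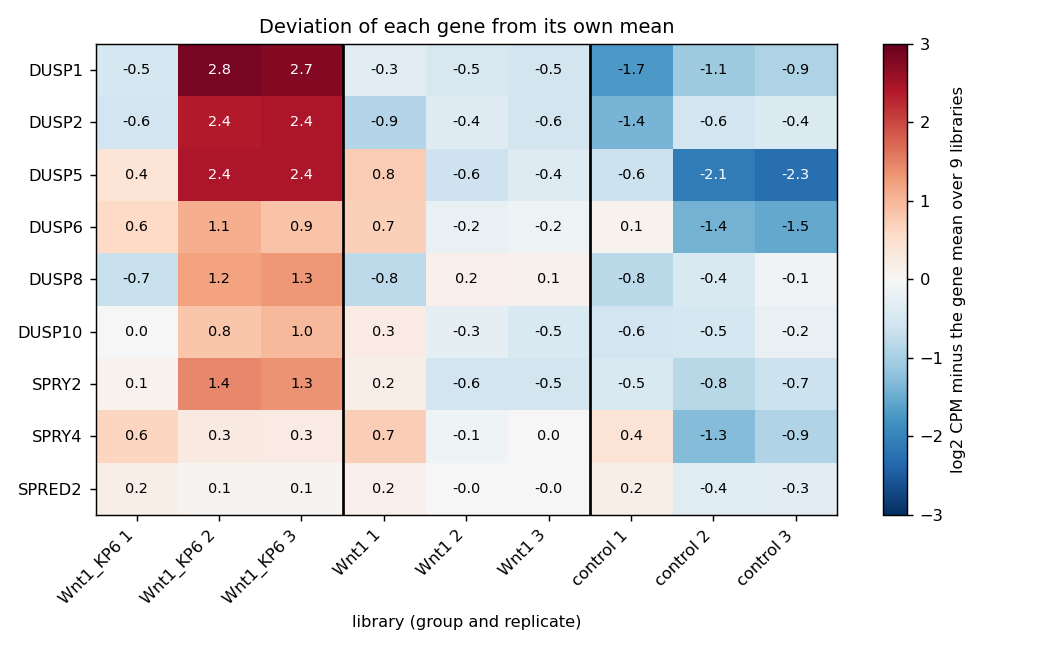
Log2 CPM of each of the 9 tested genes in each library, minus the gene's own mean over the 9 libraries; groups run Wnt1_KP6, Wnt1, control. Wnt1_KP6 replicates 2 and 3 are red for the upper 7 genes, and control replicates 2 and 3 are the bluest for DUSP5, DUSP6 and SPRY4.

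Read as a set, the comparison of Wnt1_KP6 with Wnt1, which asks what KP6 changed in plasmid-treated cells, gave 0 of 9 genes called by edgeR over all libraries, beside 0% of all genes tested. All 9 fold changes were above 0 (50.3% of all genes were), with a median of 0.96 against 0.00 over all genes, and 5 of the 9 had an unadjusted p under 0.05 in the upward direction, as did 2.12% of all genes. The 5 were DUSP1, DUSP2, DUSP5, DUSP10 and SPRY2. DESeq2 called 2 of the 9, DUSP2 (adjusted p = 0.0201) and SPRY2 (adjusted p = 0.0457), where it called 0.137% of all genes as higher. No gene of the 9 had Wnt1_KP6 libraries entirely above the Wnt1 libraries (2.87% of all genes did), since Wnt1_KP6 replicate 1 lay within or below the Wnt1 libraries or, for SPRED2, the other 2 Wnt1_KP6 libraries lay below Wnt1 replicate 1. In replicate 1 the median difference over the 9 genes was -0.10, and the range was -0.34 to 0.29. In replicates 2 and 3 alone 7 of 9 were called as higher, all but SPRY4 and SPRED2, where 6.06% of all genes were, and the median was 1.29. Without Wnt1_KP6 replicate 1, edgeR called 3 of 9 over the other 8 libraries (DUSP1, DUSP2 and SPRY2), beside 1.61% of all genes in either direction. Replicates 2 and 3 of a group differed little, so the p-values in these alone measure a small spread that may be technical. Whether the KP6 difference itself differed between replicate 1 and replicates 2 and 3 was not tested.

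The comparison of Wnt1_KP6 with control, which spans the plasmid and the peptide together, likewise gave 0 of 9 called by edgeR (0.228% of all genes were). All 9 log2 fold changes were above 0 (49% of all genes were), with a median of 1.60 against -0.01 over all genes. With an unadjusted p under 0.05, 7 of 9 genes were higher, as were 9.1% of all genes, and 5 genes had libraries entirely above control (DUSP1, DUSP5, DUSP6, DUSP10 and SPRY2), as 8.71% of all genes did. DESeq2 called 6 of 9 as higher (DUSP1, DUSP2, DUSP5, DUSP6, DUSP10 and SPRY2), where it called 3.73% of all genes as higher. In replicates 2 and 3 alone all 9 were called as higher, against 21.1% of all genes, and the largest rise was that of DUSP5 (4.62 ± 0.10, adjusted p = 2.82e-13). Replicate 1 alone gave 0.02 (SPRED2) to 1.20 (DUSP1), all above 0. Without Wnt1_KP6 replicate 1, 6 genes were called (DUSP1, DUSP2, DUSP5, DUSP8, DUSP10 and SPRY2), beside 5.2% of all genes in either direction. Without control replicate 1, 5 were called (DUSP5, DUSP6, SPRY2, SPRY4 and SPRED2), beside 9.03% of all genes.

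The comparison of Wnt1 with control, which asks what the plasmid changed, gave 0 of 9 called by edgeR and 0 by DESeq2, where edgeR called 0.122% of all genes and DESeq2 1.54% as higher. All 9 fold changes were above 0 (49.4% of all genes were), and the median was 0.37 against 0.00 over all genes. DUSP5 alone had an unadjusted p under 0.05 in the upward direction, against 6.01% of all genes, and DUSP1 and DUSP5 had libraries entirely above control, as 8.67% of all genes did. In replicates 2 and 3 alone 6 of 9 were called as higher (DUSP1, DUSP5, DUSP6, DUSP8, SPRY4 and SPRED2), where 16.3% of all genes were. Without control replicate 1, edgeR called DUSP6, SPRY4 and SPRED2, beside 6.62% of all genes in either direction. The 3 comparisons share libraries, so their values are set side by side only.

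**Figure D4:**
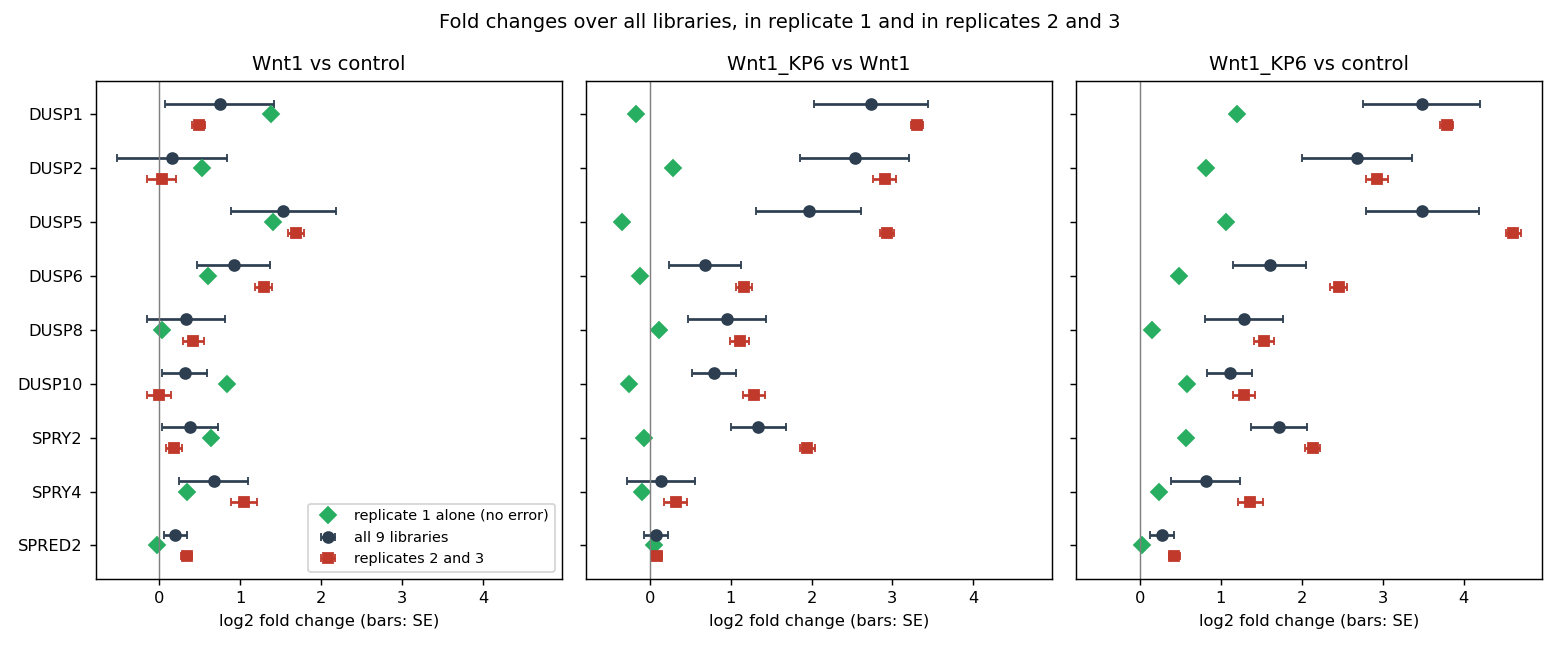
Log2 fold changes of the 9 tested genes in the 3 comparisons: dark circles are the fit to all 9 libraries and red squares the fit to replicates 2 and 3, both with SE, and green diamonds are replicate 1 alone, without an error. For Wnt1_KP6 vs Wnt1 the diamonds lie between -0.34 and 0.29, while the squares reach 3.30 (DUSP1).

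Of the MAPK phosphatases not described above, DUSP7 and DUSP9 (cytoplasmic, acting on ERK) and DUSP16 (acting on JNK and p38), 0 of 3 were called by edgeR or DESeq2 in any comparison and 0 had an unadjusted p under 0.05. For Wnt1_KP6 vs Wnt1 they were at -0.24 ± 0.25 (DUSP7), -0.06 ± 0.50 (DUSP9) and 0.13 ± 0.19 (DUSP16). Over replicates 2 and 3 alone DUSP7 fell in Wnt1_KP6 vs control (-0.72 ± 0.13, adjusted p = 0.000569). DUSP9 fell too (-1.19 ± 0.30, adjusted p = 0.00702), whereas DUSP16 rose (0.72 ± 0.08, adjusted p = 5.51e-06). Replicate 1 went the other way for each of these genes. DUSP7 had 14.98 CPM in control replicate 1 and 19.72 CPM in Wnt1_KP6 replicate 1. In the same libraries DUSP9 had 1.13 and 2.27 CPM, and DUSP16 had 53.58 and 41.98 CPM. Of SPRY1, SPRY3, SPRED1 and SPRED3, 0 of 4 were called by edgeR or DESeq2 or had an unadjusted p under 0.05, with Wnt1_KP6 vs Wnt1 at 0.06 ± 0.89, -0.14 ± 0.20, -0.08 ± 0.24 and 0.04 ± 0.40. SPRY1 was set apart by replicate, with 7.61, 1.22 and 0.804 CPM in Wnt1_KP6, 5.57, 1.80 and 1.88 CPM in Wnt1 and 6.12, 2.13 and 1.69 CPM in control. Of 11 atypical DUSPs, small phosphatases without the MAPK-binding domain, 9 were tested and 0 called by edgeR in each comparison; 0 had an unadjusted p under 0.05 for Wnt1_KP6 vs Wnt1 and 2 did for Wnt1_KP6 vs control. The smallest p for Wnt1_KP6 vs Wnt1 among them was that of DUSP14 (0.53 ± 0.33, adjusted p = 1).

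The kinases that these genes restrain had median differences in mRNA close to 0. Of 18 genes from adaptor to ERK (SHC1 to MAPK3, with NF1 and RASA1), 0 were called by edgeR in each comparison, 0 had an unadjusted p under 0.05 for Wnt1_KP6 vs Wnt1 and 2 did in each of the others, and the median log2 fold change was 0.01 for Wnt1_KP6 vs Wnt1, 0.02 for Wnt1_KP6 vs control and -0.01 for Wnt1 vs control. The smallest p were those of SOS2 (0.18 ± 0.19, adjusted p = 1) for Wnt1_KP6 vs Wnt1 and of the Ras exchange factor SOS1 for Wnt1_KP6 vs control (-0.27 ± 0.10, adjusted p = 0.214). Of 14 genes of the JNK and p38 relays, 0 were called by edgeR, with medians of -0.01 (Wnt1_KP6 vs Wnt1), -0.00 (Wnt1_KP6 vs control) and -0.01 (Wnt1 vs control). MAP2K3, a kinase that activates p38, stood apart in this list with 43.3, 93.7 and 84.3 CPM in Wnt1_KP6, 40.3, 33.8 and 36.2 CPM in Wnt1, and 29.3, 28.7 and 33.6 CPM in control. Its fold change was 1.00 ± 0.25 (adjusted p = 1) for Wnt1_KP6 vs Wnt1 and 1.27 ± 0.25 for Wnt1_KP6 vs control (adjusted p = 0.0692, and 0.000113 by DESeq2). Of 9 other inhibitors of receptors and RAF, 0 were called by edgeR. Among these ERRFI1, a feedback inhibitor of the EGF receptor, was at 1.64 ± 0.45 for Wnt1_KP6 vs control (adjusted p = 0.147, and 0.0497 by DESeq2). ERRFI1 had 525, 620 and 622 CPM in Wnt1_KP6, 562, 219 and 205 CPM in Wnt1, and 299, 142 and 127 CPM in control. In replicate 1 its Wnt1 level thus lay above its Wnt1_KP6 level.

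Genes known as outputs of the same kinases were mixed for ERK output and, for the immediate early factors, above 0 in both comparisons with Wnt1_KP6. Of 10 ERK output genes 0 were called by edgeR in each comparison, and 6 were above 0 for Wnt1_KP6 vs Wnt1 and 9 for Wnt1_KP6 vs control. Below 0 for Wnt1_KP6 vs Wnt1 were the ETS factors ETV1 (-0.05 ± 0.56), ETV4 (-0.21 ± 0.71) and ETV5 (-0.17 ± 0.51) and the receptor EPHA4 (-0.72 ± 0.50), named after their values were seen, each with an adjusted p of 1. The median was 0.46 for Wnt1_KP6 vs Wnt1 and 0.99 for Wnt1_KP6 vs control. DESeq2 called 3 as higher in Wnt1_KP6 vs control (PHLDA1, EPHA2 and EGR1), where it called 3.73% of all genes as higher. PHLDA1, an ERK-induced nuclear protein, was at 1.80 ± 0.38 for Wnt1_KP6 vs control (adjusted p = 0.0882). PHLDA1 had 147, 187 and 183 CPM in Wnt1_KP6, 163, 67.3 and 59.9 CPM in Wnt1, and 66.1, 40.0 and 42.9 CPM in control. The receptor EPHA2 was at 1.14 ± 0.39 for Wnt1_KP6 vs Wnt1 (adjusted p = 1), with 177, 554 and 533 CPM in Wnt1_KP6 against 181, 191 and 200.5 CPM in Wnt1. Of 9 immediate early transcription factors, 0 were called by edgeR in each comparison, and 9 had an unadjusted p under 0.05 as higher in both comparisons with Wnt1_KP6. Over all genes that share was 2.12% for Wnt1_KP6 vs Wnt1 and 9.1% for Wnt1_KP6 vs control. EGR2, among the 9, had at most 13 counts outside Wnt1_KP6 replicates 2 and 3, where it had 555 and 554. It passed the low-count filter only through those libraries, so its inclusion among the 9 is not support. DESeq2 called 2 of the 9 factors as higher for Wnt1_KP6 vs Wnt1 (0.137% of all genes) and all 9 for Wnt1_KP6 vs control (3.73% of all genes). Their median was 2.64 for Wnt1_KP6 vs Wnt1 and 4.23 for Wnt1_KP6 vs control. FOSB had 2.39, 843 and 755 CPM in Wnt1_KP6, 2.62, 6.74 and 7.59 CPM in Wnt1 and 2.46, 1.80 and 2.62 CPM in control. ATF3, which the study's title names, had 25.4, 668 and 664 CPM in Wnt1_KP6, 30.3, 93.9 and 93.4 CPM in Wnt1 and 18.2, 7.84 and 8.78 CPM in control. For FOSB, ATF3 and EPHA2 too the high libraries were Wnt1_KP6 replicates 2 and 3, and Wnt1_KP6 replicate 1 was near Wnt1 replicate 1. EGR1 stands in both lists.

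**Figure D5:**
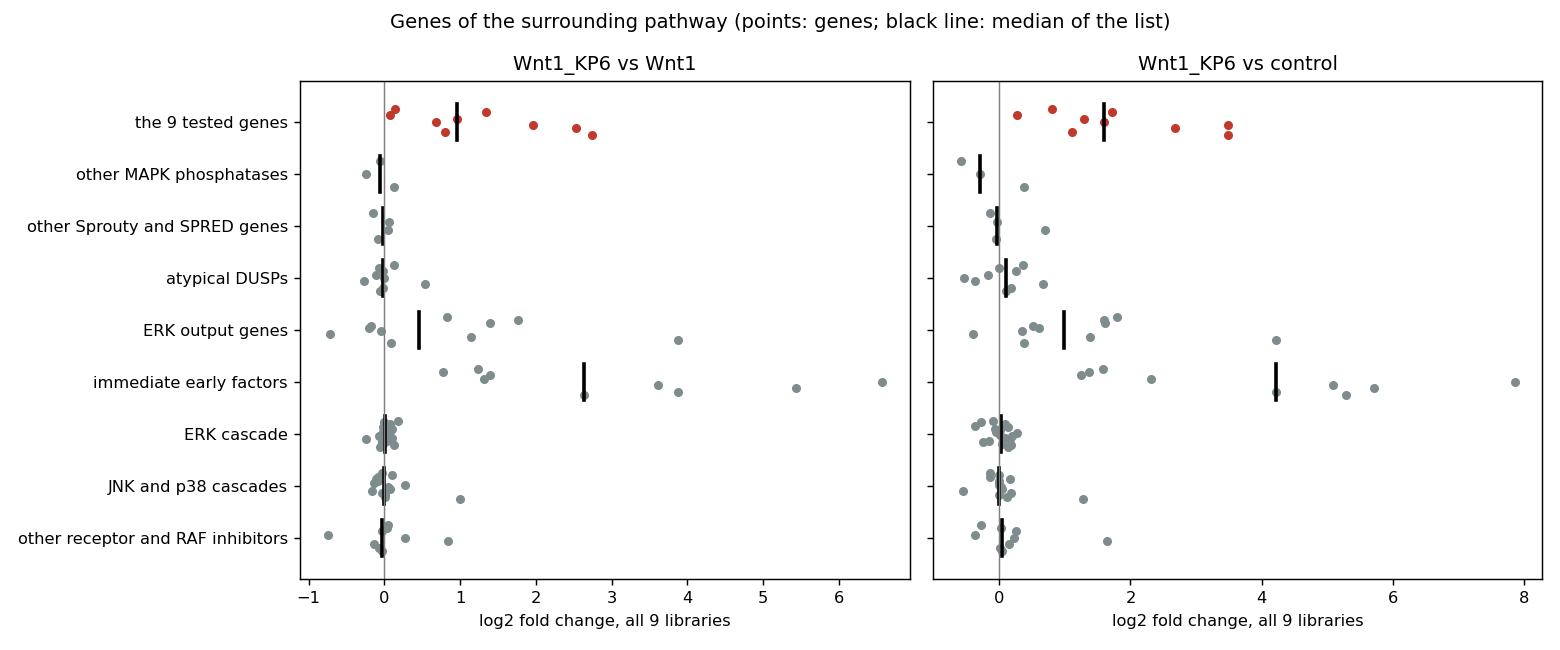
Log2 fold changes over all 9 libraries for the 9 tested feedback genes (red) and for genes of the surrounding pathway (grey), by list, with the median of each list as a black line. Feedback genes, ERK output genes and immediate early factors have medians of 0.96, 0.46 and 2.64 for Wnt1_KP6 vs Wnt1, while the ERK cascade (0.01) and the JNK and p38 cascades (-0.01) lie at 0.

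Over the 9 libraries the tested genes fell into overlapping patterns, described here by Pearson's r of log2 CPM without a test, since the libraries share groups and replicates. DUSP1 went with DUSP2 (r = 0.98), DUSP10 (0.94), SPRY2 (0.94) and DUSP8 (0.90). SPRY4 went with SPRED2 (r = 0.98) and DUSP6 (0.90), and little with DUSP1 (0.27), DUSP2 (0.11) or DUSP8 (-0.01). DUSP5 lay between, at r = 0.95 with SPRY2, 0.94 with DUSP6 and 0.72 with SPRY4. Among 10573 protein-coding genes of at least 5 CPM on average, the pair most like DUSP1 was F3, tissue factor (r = 0.996), and IER2 (0.993). F3 had 18.3, 126 and 122 CPM in Wnt1_KP6, 21.3, 17.2 and 16.7 CPM in Wnt1, and 6.72, 12.6 and 12.6 CPM in control. For DUSP2 they were the ephrin gene EFNA1 and EGR2 (both 0.99), for DUSP8 SPEN and YWHAG (both 0.99), for DUSP10 MAP3K14 and PPP1R3B (both 0.97), and for SPRY2 BCL6 (0.99) and PPP1R3B (0.98). For DUSP5 they were TNFRSF10B and PNRC1 (both 0.99), for DUSP6 IRF2BP2 and NAMPT (both 0.99), for SPRY4 MFSD2A and CEBPB (both 0.99), and for SPRED2 DAZAP2 and CACNA1G (both 0.99). EGR2 reached the 5 CPM average only through Wnt1_KP6 replicates 2 and 3 (24.1 and 24.8 CPM). It had at most 0.522 CPM in any other library, so its likeness to DUSP2 rests on the libraries that admitted it. MFSD2A, a lipid transporter, showed the replicate pattern of SPRY4 at 17.2, 10.2 and 9.43 CPM in Wnt1_KP6, 17.0, 8.02 and 7.17 CPM in Wnt1, and 12.3, 2.05 and 2.62 CPM in control. The 7 DUSP genes, and none of the 3 Sprouty and SPRED genes, carry the MAPK signalling pathway in the KEGG column of the authors' deposited table, where 327 genes do.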

How the data were processed

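Sequencing covered 9 poly(A) libraries of HKC-8 cells. RSEM, HISAT2, StringTie 1.3.1, Bowtie2 2.2.8, fastp 0.18.0 and hg38 appear in the submitters' processing notes, without their roles; annotation and filters are not known here. For every gene and library the authors deposited an expected count (an estimated count that need not be whole; 87.6% were whole within 1e-06) and an FPKM value, which is relative to gene length and depth, per the file headers. Treatment labels gave the groups, and titles the replicate numbers.

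Counts were rounded. The filterByExpr function of edgeR, at a minimum count of 10 and a minimum total of 15, left 13153 of 20323 genes and 9 of the 10 members. edgeR 4.0.16 in R 4.3.3 fitted 3 group means to all 9 libraries (TMM, robust quasi-likelihood, two-sided, no block). Differences in replicate 1 used log2 CPM with a prior count of 2. A count of 0 allows 3 counts, or 0.105 to 0.142 CPM in a library, for counting error only. DESeq2 1.42.0 and limma 3.58.1 on log2(FPKM + 1) were alternatives. GENCODE 29 on GRCh38, the assembly of hg38, held 20171 of the gene IDs and gave coordinates and exon overlaps; promoters came from RefSeq on GRCh38.p14. Same-numbered libraries deviated together from their group means (r of 0.11 to 0.67 across genes in 9 pairs, all over 0.1). The replicate block, an alternative fit, took the numbers to pair the libraries. Pairs of unlike number ran from -0.55 to 0.40: those with a replicate 1 were negative and those of replicates 2 and 3 positive, and control replicate 3 went closer with Wnt1_KP6 replicate 2 (0.25) than with replicate 3 (0.11), so the values mostly set replicate 1 against the others. Whether replicates 2 and 3 pair by number cannot be told from these values. The fits were tested on simulated data.

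The members, the other gene lists, the alternatives and the naming rule were chosen with earlier results of these data known. The rule named all members, the rest of both families, from other lists the called genes or up to 3 with the smallest p, ATF3, and the 2 genes most like each member. Of the lists, 124 distinct genes all matched a row.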

Additional observations from a re-analysis of the deposited data

How the results depend on the processing

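In replicate 1 alone, a difference with no test, 6 of 9 genes were below 0 in Wnt1_KP6 vs Wnt1 (-0.34 for DUSP5, -0.25 for DUSP10, -0.17 for DUSP1, -0.12 for DUSP6, -0.10 for SPRY4 and -0.07 for SPRY2), as was SPRED2 in Wnt1 vs control (-0.03). Among the settings with a fit, the fold changes that turned round were close to 0: DUSP10 in Wnt1 vs control in replicates 2 and 3 only (-0.0033), DUSP2 in Wnt1 vs control without control replicate 1 (-0.10, the lowest of a range up to 0.34 over the left-out libraries), and SPRY4 in Wnt1_KP6 vs Wnt1 without Wnt1 replicate 2 (-0.017) or without Wnt1_KP6 replicate 1 (-4.5e-05), within a range up to 0.47. The number of genes called by edgeR was 0 of 9 in each comparison over all libraries. It stayed 0 with DESeq2 size factors, without the filter on low counts, with only the 2 groups compared, and with limma on log2(FPKM + 1). With the replicate block it was 0 in each comparison as well, and no call changed. The DESeq2 test called 2 of 9 in Wnt1_KP6 vs Wnt1 and 6 of 9 in Wnt1_KP6 vs control. In replicates 2 and 3 only, 7 were called in Wnt1_KP6 vs Wnt1, 9 in Wnt1_KP6 vs control and 6 in Wnt1 vs control. Leaving out each library in turn gave 0 to 3 called in Wnt1_KP6 vs Wnt1, 0 to 6 in Wnt1_KP6 vs control and 0 to 3 in Wnt1 vs control. Counts above 0 came without control replicate 1 or Wnt1_KP6 replicate 1. The highest counts stood beside 1.61%, 5.2% and 6.62% of all genes called in the same fits, in that order of comparisons. Over all genes, the number called by edgeR in Wnt1_KP6 vs control was 30, against 674 by DESeq2, 149 with the replicate block and 0 with only the 2 groups compared; in Wnt1_KP6 vs Wnt1 it was 0, against 20 by DESeq2, and in Wnt1 vs control 16, against 302 by DESeq2 and 95 with the block. The cause of these differences was not tested. Depth limits DUSP4 (at most 11 counts) and, less, DUSP2.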
